A study of Mus musculus with 6 samples.

Results

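Scavenger receptors and receptors for dying cells are the surface proteins with which microglia and macrophages take up modified lipoproteins, bacteria, protein aggregates and apoptotic cells. Values are given here for 9 genes of this kind, taken from the count table by symbol: the class A receptors Msr1, Marco and Colec12, the class B receptors Cd36, Scarb1 and Scarb2, the receptor tyrosine kinase Mertk, and the secreted bridging proteins Gas6 and Mfge8. The deposited count table holds 17872 genes, and 8 of the 9 have a row in it; Gas6 has none there and was not analysed here. All 8 passed the filter on low counts and were tested together with 13403 genes in all.

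RNA of BV2 cells, an immortalised mouse microglial line, was sequenced in 2 groups of 3 libraries: wild type, and cells whose Tfam gene was the target of CRISPR-Cas9 editing. Its protein coats mitochondrial DNA and is needed to transcribe it, and the question was what its loss does to microglial gene expression. The labels list no treatment for either group, and their culture notes, the same for every library, mention puromycin at 2 µg/mL after editing, so whether the wild-type cells received it is not clear. Nothing in them tells if the edited cells came from 1 clone or a pool, or if replicates came from separate cultures. The p-values then measure only the spread between these 6 libraries, which may be technical.

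The mRNA of Tfam was not lower after editing. Its raw counts were 1098, 591 and 524 in wild type and 868, 743 and 619 in the libraries labelled Tfam knockout (log2 fold change 0.14 ± 0.0869 SE, adjusted p = 0.193, edgeR). The mitochondrially encoded mt-Nd1, picked after its values were seen, fell by 1.72 on the log2 scale (adjusted p = 6.31e-10, edgeR). Other mitochondrially encoded genes are not summarised here. Because the mRNA of Tfam was not lower, the second group is called the libraries labelled knockout throughout. Total counts per library ran from 13850691 to 28418133. Of 17 microglia and macrophage markers, 13 had a row and 11 could be tested, of which 8 were lower and 1 higher in the labelled knockout libraries. Of all tested genes 22.9% were called lower and 21.3% higher in edgeR. Among the 8, Cx3cr1 passed the filter on low counts only with wild type, as it reached the cutoff in 3 wild-type and 2 labelled knockout libraries. The summed level of the 13 markers was 3600 to 4133 CPM in wild type and 2743 to 3021 CPM in the labelled knockout libraries. CPM are counts per 1e+06, scaled with TMM factors. Csf1r, the receptor for the growth factor CSF1, fell by 1.46 on the log2 scale (501 ± 12.8 to 182 ± 6.25 CPM), and Trem2 (-0.83) and its adaptor Tyrobp (-0.83) fell too, while Adgre1 (0.61) was the 1 that rose. Cd68 was abundant (1264 ± 134 and 1003 ± 56.2 CPM), whereas the markers of brain-resident microglia Tmem119 (at most 11 counts in a library) and Sall1 (at most 7) were near 0. Of 24 markers of astrocytes, neurons, oligodendrocytes, fibroblasts, endothelium and lymphocytes, 11 had a row, and these summed to 31.1 to 33.5 CPM in wild type and 17.4 to 21.0 CPM in the labelled knockout libraries. Of the 7 tested, Mbp (log2 fold change -1.20) and Pdgfra (-2.29; past the filter only through wild type) were lower, and their part in the results below was not tested.

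Uptake of a dying cell begins when phosphatidylserine appears on its surface. Mertk, with its relatives Axl and Tyro3, binds it through Gas6 or protein S, whereas Mfge8 bridges it to integrins of the alpha-v type. Scavenger receptors of class A carry collagen-like stalks and bind polyanionic ligands such as acetylated or oxidised LDL, bacterial surfaces and amyloid fibrils. Class B receptors span the membrane at both ends and handle lipids: CD36 takes up oxidised LDL and fatty acids, SR-B1, the product of Scarb1, exchanges cholesterol with HDL, and the product of Scarb2 stays in the membrane of lysosomes.

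The promoters of Marco and Mertk are shown because these genes had the largest rise and the largest fall among the members for which a RefSeq promoter sequence was at hand (6 of 9: Marco, Mertk, Cd36, Scarb2, Mfge8 and Gas6). Each sequence is the 250 bases before the RefSeq start in build GRCm38.p6, another build than the one named for the reads, written 5′ to 3′ on the gene's strand. Marco lies at chr1:120505025-120505274 on the minus strand and Mertk at chr2:128698665-128698914 on the plus strand. Capitals mark a match to the narrower NF-kB pattern, GGG and TTCC with any 3 bases between.
Marco: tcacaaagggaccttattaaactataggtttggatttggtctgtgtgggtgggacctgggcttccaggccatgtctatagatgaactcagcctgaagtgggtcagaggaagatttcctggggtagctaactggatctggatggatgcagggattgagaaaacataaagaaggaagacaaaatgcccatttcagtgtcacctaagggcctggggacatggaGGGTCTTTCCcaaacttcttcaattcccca
Mertk: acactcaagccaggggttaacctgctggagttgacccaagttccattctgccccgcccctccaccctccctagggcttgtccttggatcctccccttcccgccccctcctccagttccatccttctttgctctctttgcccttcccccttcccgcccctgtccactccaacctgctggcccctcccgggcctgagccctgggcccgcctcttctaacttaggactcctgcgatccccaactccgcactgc
The Marco sequence held 0 CG dinucleotides and 47.6% G and C, and the Mertk sequence 7 CG dinucleotides and 63.6%. The search used 10 patterns on both strands, from 250 bases before to 50 after the start: the lysosomal E-boxes TCACGTGA and TCACGTGNC, AP-1 (TGANTCA), PU.1 (GAGGAAGT), the hypoxia element NACGTG, which the E-boxes also contain, the direct repeats 1 and 4 of the nuclear receptors, a Maf element, and a broad and a narrower NF-kB pattern, the first of which (GGG and CC with any 5 bases between) takes in the second. The broad NF-kB pattern was in all 6 member promoters, as in 50.8% of 32851 mouse promoters. Of the other 9 patterns, only the narrower NF-kB pattern was found among the members. It was in 1 member promoter, that of Marco, 30 bases before the start on the gene's own strand, and 5.56% of all promoters held it. The shares of all promoters with the remaining patterns were 0.974%, 1.70%, 7.81%, 3.20%, 19.6%, 0.0396%, 0.0152% and 0.314% in the order given. These are matches of letters, not sites of binding. The RefSeq start coincided with a GENCODE start for Marco and lay 41 bases from the nearest one for Mertk.

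The members split by direction, not by class. Marco, Msr1 and Cd36 rose, Colec12, Mertk, Scarb1 and Mfge8 fell, and Scarb2 did not pass the test. These 7 calls among 8 tested members (3 higher, 4 lower) stand beside a background of 44.2% of all tested genes, 21.3% called higher and 22.9% called lower in edgeR's quasi-likelihood test at an adjusted p below 0.05. Of all calls 48.2% were higher, and 61.8% with scaling by library totals, under which the median log2 fold change of all tested genes was 0.0999. For 7 of the 8 members the ranges of the groups were apart, as for 52.9% of all tested genes. The median log2 fold change of the members was -0.09, beside 0.00124 over all tested genes.

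**Figure D1:**
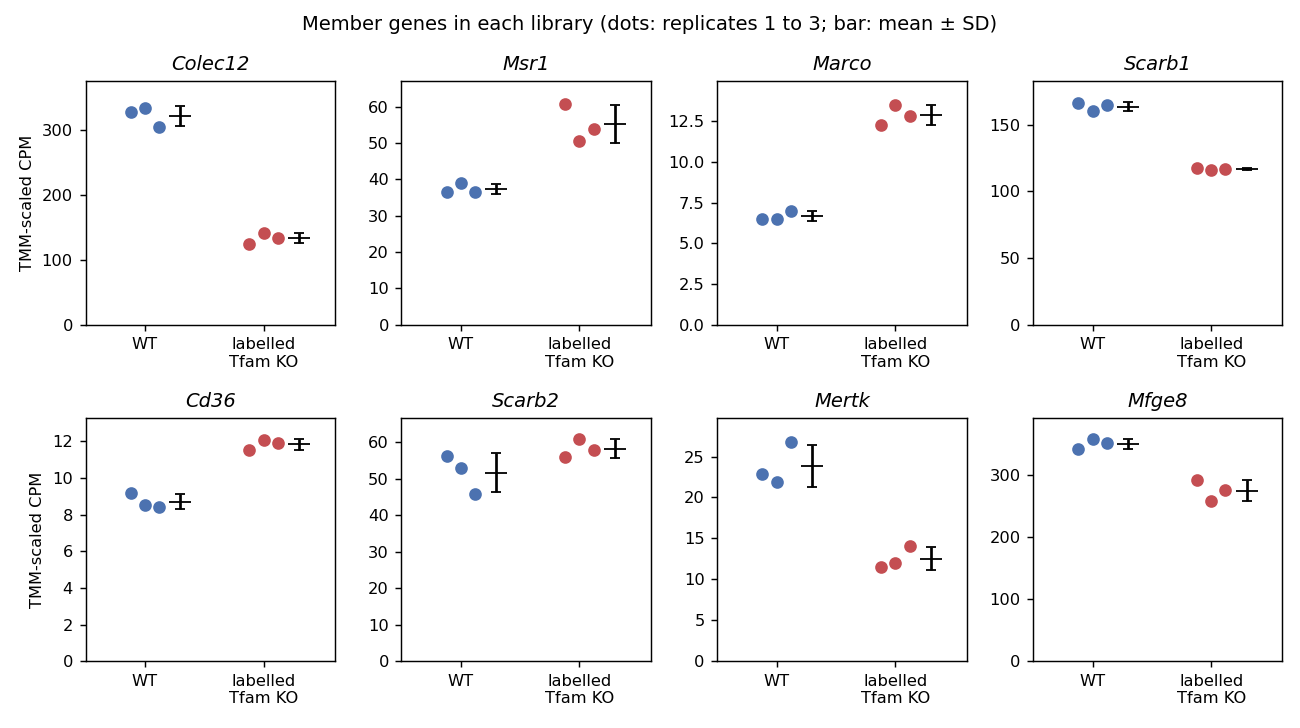
TMM-scaled CPM (vertical axes, from 0) of the 8 members in each of the 6 libraries; dots are replicates 1 to 3 of wild type (blue) and of the labelled knockout (red), and bars are mean ± SD. The 2 groups are apart in every panel but that of Scarb2.

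Colec12, a class A receptor with a collectin-type lectin domain, differed most. Its raw counts were 9199, 5106 and 4290 in wild type and 2645, 2452 and 1913 in the libraries labelled knockout. Scaled, these were 327, 333 and 304 CPM against 125, 141 and 133 CPM, so the highest labelled knockout library lay far below the lowest wild type. Colec12 fell by 1.27 ± 0.0762 (SE) on the log2 scale, from 321 ± 15.5 to 133 ± 8.0 CPM (SD, n = 3 each; adjusted p = 7.42e-10, edgeR).

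The other class A members went the opposite way. Msr1, the macrophage scavenger receptor for acetylated LDL, was at 36.7, 39.0 and 36.5 CPM in wild type and 60.9, 50.7 and 53.9 CPM in the labelled knockout libraries. Its lowest labelled knockout value was above every wild-type value, and the labelled knockout libraries were more spread (SD 5.20 against 1.38 CPM). Msr1 rose 1.48-fold (log2 fold change 0.56 ± 0.0929 SE, adjusted p = 0.000105, edgeR). Marco, a receptor for bacteria and inhaled particles that macrophages raise on activation, was low, with raw counts of 183, 100 and 99 in wild type and 260, 235 and 184 in the labelled knockout libraries. In CPM these were 6.51, 6.52 and 7.01 against 12.3, 13.5 and 12.8. Marco rose 1.93-fold (0.95 ± 0.141 SE, adjusted p = 3.62e-05, edgeR), the largest rise among the members.

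Among class B receptors, Cd36 rose and Scarb1 fell. Cd36, the fatty acid and oxidised LDL receptor, had 259, 131 and 119 raw counts in wild type and 244, 210 and 171 after editing. In CPM these were 9.21, 8.54 and 8.42 against 11.5, 12.1 and 11.9. The groups were apart, but the rise of 1.35-fold was the smallest of the called rises (0.43 ± 0.136 SE, adjusted p = 0.0151, edgeR). Scarb1, the HDL receptor, was at 166, 160 and 164 CPM in wild type and 117, 116 and 117 CPM in the labelled knockout libraries. It fell by 0.49 ± 0.0675 (SE) on the log2 scale (adjusted p = 1.70e-05, edgeR), with little spread in either group (SD 3.05 and 0.769 CPM).

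Scarb2, the lysosomal member of the class, was at 56.4, 53.1 and 45.8 CPM in wild type and 56.1, 61.1 and 57.8 CPM in the labelled knockout libraries. Labelled knockout library 1 lay within the wild-type range, and wild type 3 was the lowest of the 6. The log2 fold change was 0.17 with a 95% interval of -0.02 to 0.36 (adjusted p = 0.142, edgeR), so a rise of up to 0.36 is within the interval. Scarb2 passed as higher when libraries were scaled by their totals (0.27, adjusted p = 0.0317, edgeR), in limma's test of the authors' log2 table after their added 8 was replaced by 1 (0.28, adjusted p = 0.0258) and without wild type 1 (0.25, adjusted p = 0.0472, edgeR).

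Mertk and Mfge8, the receptor and the bridge described above for phosphatidylserine, both fell. Mertk, the kinase receptor, had 644, 336 and 378 raw counts in wild type and 244, 209 and 202 in the labelled knockout libraries. In CPM it was at 22.9, 21.9 and 26.7 against 11.5, 12.01 and 14.1, with no overlap. Mertk fell by 0.93 ± 0.124 (SE) on the log2 scale (adjusted p = 1.08e-05, edgeR). Mfge8, the secreted bridge to alpha-v integrins, was the most abundant member in CPM, at 341, 357 and 350 in wild type and 291, 257 and 275 in the labelled knockout libraries. Every labelled knockout library was below every wild type, and the fall was the smallest of the called falls (log2 fold change -0.35 ± 0.0748 SE, adjusted p = 0.00111, edgeR). Because the cultures were sequenced in bulk, fewer cells with a transcript and less of it per cell cannot be told apart.

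**Figure D2:**
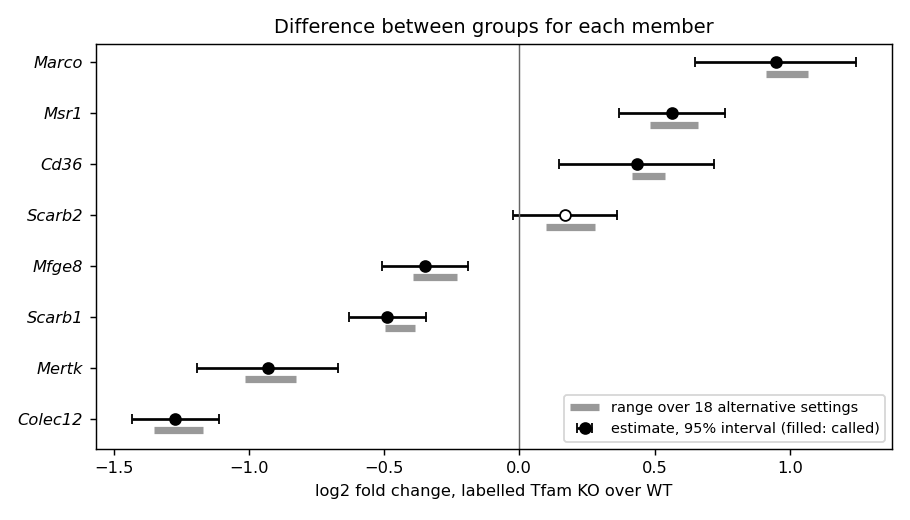
Log2 fold change of each member, labelled knockout over wild type (horizontal axis), with its 95% interval (filled points passed the test, the open point did not) and, in grey, the range over 18 alternative settings. The intervals of 7 members exclude 0, and that of Scarb2 runs from -0.02 to 0.36.

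These 7 calls held when each of the 6 libraries was left out in turn; the highest adjusted p was 0.0454, for Cd36. Against a change of 1.5-fold (edgeR's glmTreat), only Marco, Colec12 and Mertk were called.

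Levels can be compared between genes only per transcript length, here as CPM per kilobase of the median protein-coding transcript in GENCODE. In wild type the order was Mfge8 (169), Scarb1 (103), Colec12 (40.0), Msr1 (26.3), Scarb2 (11.01), Marco (5.82), Mertk (5.54) and Cd36 (3.24 CPM per kilobase). Marco and Mertk did not differ beyond their spread, and other neighbours did not overlap. Mfge8 stood at the 94.6th percentile of tested genes and Cd36 at the 26.5th. In the labelled knockout libraries Msr1 (38.7) stood above Colec12 (16.6), Marco (11.2) came close to Scarb2 (12.4), and Mertk (2.91) was last, below Cd36 (4.40), all without overlap. These places rest partly on which transcript gives the length. With the longest transcript, which is 3636 against 1424 bases for Msr1, Colec12 (16.6) and Msr1 (15.2) overlapped in the labelled knockout libraries, Scarb2 (11.01) and Msr1 (10.3) overlapped in wild type, and Mertk (5.54) was above Marco (3.47) in wild type.

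Within class A the share of Colec12 was lower and those of Msr1 and Marco higher in the labelled knockout libraries. With median transcript lengths, Colec12 gave 55.01% ± 1.07 of the summed CPM per kilobase of Msr1, Marco, Colec12, Scara3 and Scara5 in wild type, and 24.8% ± 2.21 in the other group (SD, n = 3 each). Msr1 gave 36.1% ± 0.622 and 57.7% ± 3.66, and Marco 8.01% ± 0.603 and 16.8% ± 1.29. With the longest transcripts the shares were 73.6% ± 0.915 and 42.6% ± 2.59 for Colec12, 18.9% ± 0.45 and 38.9% ± 3.64 for Msr1, and 6.39% ± 0.519 and 17.2% ± 0.83 for Marco. The differences kept their direction, but which of Colec12 and Msr1 was the larger in the labelled knockout libraries depended on the length used. Scara3 and Scara5, class A relatives that are no members, each gave under 1% in every library with median lengths. The class sum was 72.8, 75.2 and 70.2 CPM per kilobase in wild type and 69.3, 65.4 and 66.5 in the labelled knockout libraries, a ratio of 0.922, or 0.716 with the longest transcripts.

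In class B, Scarb1 dominated in both groups, with 87.8% ± 0.956 of the sum in wild type and 81.3% ± 0.668 in the labelled knockout libraries. Cd36 went from 2.77% ± 0.0819 to 4.89% ± 0.111, and Scarb2 from 9.42% ± 0.885 to 13.8% ± 0.569. Scarb2 itself was not called (51.7 ± 5.41 and 58.3 ± 2.51 CPM), and a share also depends on the other genes of the class. With the longest transcripts Scarb1 gave 82.7% ± 1.32 in wild type and 74.4% ± 0.853 in the labelled knockout libraries. The sum of the class was 120, 115 and 116 CPM per kilobase in wild type and 89.9, 90.2 and 89.9 in the labelled knockout libraries, a ratio of 0.770. Each of these shares of Msr1, Marco, Colec12, Cd36, Scarb1 and Scarb2 and each sum was apart between the groups, with an exact two-sided permutation p of 0.1, the smallest that 3 against 3 can give (adjusted p = 0.15 over 9 shares and 0.1 over 3 sums), so the design cannot reach 0.05.

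**Figure D3:**
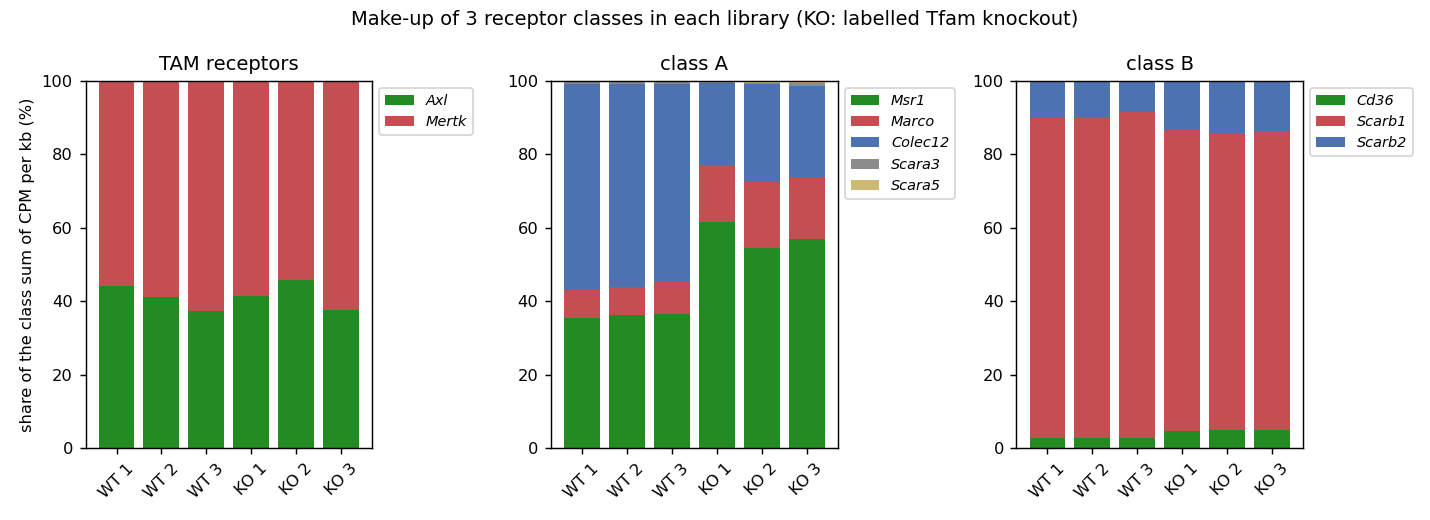
Share (%) of each gene in the summed CPM per kilobase of its receptor class in each library (WT 1 to 3 and KO 1 to 3, the labelled knockout), as stacked bars from 0 to 100. With median transcript lengths, Colec12 takes 53.9% to 56.0% of class A in wild type and 22.4% to 26.9% in the labelled knockout libraries, while Axl and Mertk keep overlapping shares.

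The TAM receptors fell together. Axl, which shares the ligand Gas6 with Mertk, had 464, 213 and 204 raw counts in wild type and 157, 161 and 111 in the labelled knockout libraries, and fell by 0.88 on the log2 scale (14.9 ± 1.38 to 8.13 ± 0.979 CPM, adjusted p = 8.03e-05, edgeR). Tyro3 has no row in the table and was not analysed here. Mertk gave 59.1% ± 3.49 of the Axl and Mertk sum in wild type and 58.3% ± 4.10 in the labelled knockout libraries (exact two-sided permutation p = 0.7, adjusted p = 0.7), a difference of -0.813 percentage points that changed sign without wild type 3 (0.987) or labelled knockout 2 (1.29). Of their ligands, the gene for protein S, Pros1, was too low to test, with 20, 4 and 15 counts in wild type and 4, 0 and 2 in the labelled knockout libraries.

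In the chosen list of other receptors and bridges for phosphatidylserine, which is not complete, most tested genes were lower. Of 12 tested, 8 fell and 1 rose, beside 22.9% of all tested genes called lower and 21.3% called higher. The 8 hold Itgb3, which reached the filter's cutoff in 3 wild-type and 0 labelled knockout libraries, so its fall is a description. Adgrb1, tested but not called, reached it in 3 wild-type and 1 labelled knockout libraries, so it too depended on wild type to pass. The median log2 fold change of the 12 was -0.78. The other 8 symbols of the list of 20 had no row or too few counts. DESeq2 called 2 higher. Beside Axl, the CD300 family receptors Cd300lb (-1.21) and Cd300a (-0.92), the TIM family receptor Havcr2 (-0.90) and the galectin Lgals3, which can act as a bridge to dying cells (1276 ± 158 to 679 ± 80.4 CPM), were lower. Itgav, the alpha-v chain of the integrins that bind Mfge8, fell by 0.33 on the log2 scale (210 ± 13.1 to 167 ± 17.8 CPM, adjusted p = 0.0038, edgeR). Its partner Itgb5 rose (0.34), a call lost without wild type 3 (adjusted p = 0.0635), and Itgb3, which passed the filter only through wild type, was near the floor of the data (25, 20 and 16 counts against 8, 8 and 7; log2 fold change -1.30, lost when any 1 of 5 libraries was left out and with DESeq2, adjusted p = 0.0661). Edil3, which resembles Mfge8 in domain structure, fell by 0.47 on the log2 scale. Itgav, Itgb3 and Edil3 were picked for naming after their values were seen.

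The engulfment machinery acts after binding. Of its 18 tested genes, 2 rose and 2 fell, beside 44.2% of all tested genes called, and the median was 0.00533. With library totals 7 rose. The adaptor Crkl rose (0.40), as did the GTPase Rac2 (0.22), whose call was lost without any 1 of 4 libraries (highest adjusted p = 0.0883) and with the replicate number as a block (0.0784). Elmo2 (-0.54) and the exchange factor Dock2 (-0.50) fell, while Elmo1 was at 148 ± 12.2 and 146 ± 14.4 CPM and Rac1 at 228 ± 10.9 and 206 ± 11.2 CPM. Receptors for signals that draw phagocytes to dying cells, with the self signals, included 7 of 10 tested that fell and 0 that rose in edgeR (1 at an unadjusted p below 0.05; 0 in DESeq2 and limma-voom), with a median of -0.39. Among them were the lysophospholipid receptors Gpr132 (-0.43) and S1pr1 (-0.65, not called without any 1 of 3 libraries, highest adjusted p = 0.0658). Also lower were the fractalkine receptor Cx3cr1 (-1.15, lost without any 1 of 4 libraries, adjusted p up to 0.109) and the eat-me protein calreticulin, Calr (-0.39). The 7 also hold P2ry6, which passed the filter on low counts only through wild type (62, 30 and 12 counts against 7, 5 and 1). Cx3cr1 reached the cutoff in 3 wild-type and 2 labelled knockout libraries, so it too depended on wild type to pass. The falls of both are a description. Of all tested genes 22.9% were called lower.

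**Figure D4:**
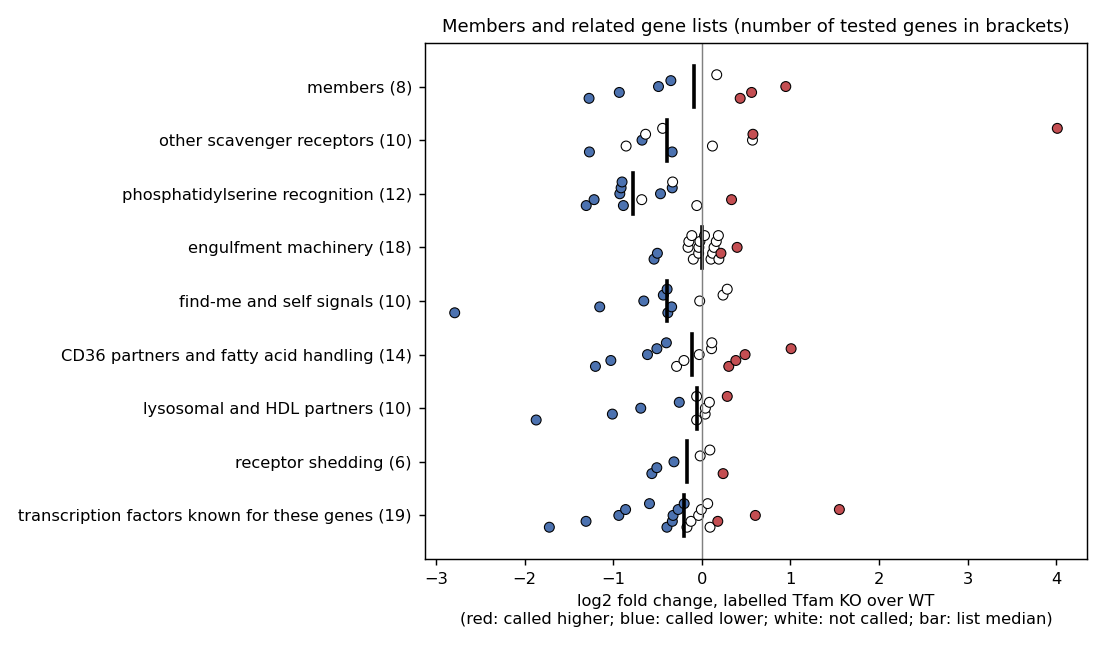
Log2 fold change, labelled knockout over wild type (horizontal axis), of each tested gene in the members and 8 related lists; red points were called higher, blue lower, white not called, and black bars are list medians. The median is -0.78 for phosphatidylserine recognition and 0.00533 for the engulfment machinery.

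Among other scavenger receptors, 2 of 10 tested were called higher and 3 lower, a share near the 44.2% of all tested genes, and the median was -0.39. One of the 2 was Olr1, the lectin-like oxidised LDL receptor, with 2, 1 and 0 counts in wild type and 14, 22 and 13 in the labelled knockout libraries. It passed the filter on low counts only through the latter, so its values are a description. Stab1, a receptor of the stabilin family, rose (21.8 ± 2.64 to 32.5 ± 2.05 CPM). The soluble-type receptor Ssc5d (-1.27), the large lipoprotein receptor Lrp1 (660 ± 70.3 to 414 ± 35.2 CPM) and the lysosomal sialomucin Cd68 (-0.33) fell, the last call lost without wild type 2 (adjusted p = 0.0523).

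Genes that work with CD36 moved both ways, 4 higher and 5 lower of 14, beside 44.2% of all tested genes called. The median log2 fold change of the 14 was -0.11. Its toll-like co-receptor Tlr2 rose 2.01-fold (120 ± 7.97 to 241 ± 4.02 CPM), whereas Tlr4 was at 37.2 ± 4.04 and 36.6 ± 0.796 CPM and Tlr6 at 11.5 ± 1.71 and 9.42 ± 0.772 CPM. The kinases Syk (0.38) and Fyn (0.31; lost without wild type 2, adjusted p = 0.0807) and the acyl-CoA synthetase Acsl1 (0.49) rose. The tetraspanins Cd81 (-1.20) and Cd9 (-1.03), which associate with CD36 in membranes, the fatty acid binding proteins Fabp3 (-0.61) and Fabp4 (-0.40), and the lipid droplet coat Plin2 (-0.51) fell. Of 10 tested partners of Scarb1 and Scarb2, 4 fell and 1 rose (median -0.06), a share near the 44.2% of all tested genes. The apolipoprotein gene Apoe (-1.87) and Abcg1 (-0.69), whose product exports cholesterol to HDL, were lower, as was Scarb1. The phospholipid transfer protein Pltp (-1.01) was called lower, though not when either wild type 3 (adjusted p = 0.17) or labelled knockout 1 (0.093) was left out, and Cd63 (-0.25) was not called without any 1 of 4 libraries (adjusted p up to 0.113), with library totals (0.123) or with the replicate number as a block (0.0663). Lamp1 rose (0.29), a call lost without wild type 3 (adjusted p = 0.0558); without that library 0 of this list were higher and 2 lower.

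Of the genes for shedding of receptors, 1 of 6 tested rose and 3 fell (median -0.17), beside 44.2% of all tested genes called. Adam17, the protease that cuts Mertk from the surface, fell by 0.51 on the log2 scale (297 ± 7.07 to 209 ± 12.3 CPM), and the metalloprotease inhibitor Timp2 (-0.56) fell as well. Furin (-0.31) fell, a call lost without wild type 3 (adjusted p = 0.065) and with library totals (0.0549). Rhbdf2, which brings Adam17 to the surface, rose (0.24). Among transcription factors known for these genes, 10 of 19 tested fell and 3 rose (6 fell with offsets for length and GC content), and the median was -0.20. Of all tested genes 22.9% were called lower and 21.3% higher. Maf (-1.72), Klf2 (-1.31) and Cebpa (-0.94) fell. Nr4a1 rose 2.94-fold (1.55). Cebpb (0.61) was called higher, though not when labelled knockout 1 (adjusted p = 0.0505) or 2 (0.0645) was left out, nor by DESeq2 (0.245). Its wild-type values were 68.5, 155 and 165 CPM, and without the low wild type 1 its log2 fold change was 0.30 (adjusted p = 0.0136, edgeR). Cebpb is counted among the 3, and without labelled knockout 2 only 1 factor of the list was higher. Nfe2l2 (0.18), a factor known for Marco and Cd36, was not called without any 1 of 5 libraries (adjusted p up to 0.135). Pparg, a known activator of Cd36, was too low to test, with 17, 5 and 5 counts against 7, 5 and 4. Tfeb and Tfe3, regulators of lysosomal genes, did not pass.

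The genes whose profile over the 6 libraries lay closest to Marco, by the root mean square difference of log2 CPM centred on wild type, were Birc3 (0.0389), Zfp964 (0.041) and Nemp1 (0.042), and 45 genes lay within 0.1. Closest to Colec12 were Tec (0.076), Col15a1 (0.0768) and Mettl21a (0.0815), with 11 genes within 0.1. With 2 groups of libraries this likeness is mostly that of the fold change.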

How the data were processed

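Counts of polyA RNA were analysed for 6 libraries, 3 a group. Reads were aligned to GRCm39 and counted before deposit, and the submitters' processing notes name HISAT2 2.1.0, featureCounts 2.0.0, SAMtools 1.9 and bcl2fastq 2.17. The kit named in the labels does not mark strand; no annotated exon overlaps those of the 8 members with a row. The deposited counts are whole read counts per gene, not normalized. The deposited log2 table holds, from its values, log2 of the count scaled to a common total plus 8.

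The main test was the quasi-likelihood F test of edgeR 4.0.16 (R 4.3.3) after filterByExpr and TMM scaling, without covariates, adjusted by Benjamini-Hochberg over 13403 genes. SEs were the absolute log2 fold change divided by sqrt(F); SDs are over 3 libraries. Alternatives used limma 3.58.1, DESeq2 1.42.0 and mgcv 1.9.3 (smooth offsets for length and GC content). Lengths came from GENCODE M21 by symbol (99.5% of tested genes). The edgeR step was tested on simulated data.

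The members and lists were chosen with earlier results of these data known. Up to 4 called genes a list, by size of change among those averaging 1 CPM or more, were named, and beyond these the genes behind counts of 5 or fewer and some others (Tlr4, Tlr6, Elmo1, Rac1, Tfeb, Tfe3, Pparg, Itgav, Itgb3, Edil3, Adgrb1, P2ry6, mt-Nd1, Tmem119, Sall1), chosen after their values were seen. A few list members are not reported here by name.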

Additional observations from a re-analysis of the deposited data

How the results depend on the processing

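The direction of all 8 tested members was the same under all 18 alternatives. Called counts of 3 higher and 4 lower became 4 and 4 with library totals, with the authors' log2 table after their added 8 was replaced by 1 (the form meant below), or without wild type 1, where Scarb2 joined, at 0.27, 0.28 and 0.25 on the log2 scale; leaving out a library gave 0.10 to 0.25 for Scarb2. Tfam passed as higher with library totals (0.24) and the authors' log2 table so altered (0.25). Library totals moved the median of all genes to 0.0999 and the share of higher among all calls from 48.2% to 61.8%. Against a 1.5-fold change 389 genes were called higher and 705 lower; of the members 1 and 2 were, with Cd36 (0.43), Msr1 (0.56), Scarb1 (-0.49) and Mfge8 (-0.35) not called; higher and lower calls were 1 and 0 for other scavenger receptors, 0 and 4 for phosphatidylserine recognition, 0 and 0 for engulfment machinery, 0 and 1 for find-me and self signals, 1 and 2 for CD36 partners, 0 and 1 for lysosomal and HDL partners, 0 and 0 for shedding, and 1 and 3 for transcription factors.

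Higher engulfment genes numbered 7 with library totals, the altered log2 table or length and GC offsets, 5 with offsets and the replicate block, and 1 with the replicate block alone; left-out libraries gave 1 to 3. Higher find-me and self signals numbered 1 with library totals, the altered log2 table and the offsets with or without the block, and 0 to 1 with libraries left out. Lower transcription factors numbered 6 with the offsets, with or without the block. Phosphatidylserine recognition had 2 higher with DESeq2 or no filter, and 1 to 2 with libraries left out; other scavenger receptors had 1 higher at 5 CPM in 3 libraries. With libraries left out, lysosomal and HDL partners were 0 to 1 higher and 2 to 4 lower, and 1 to 3 transcription factors were higher. The share of Mertk among TAM receptors differed by -2.81 to 1.29 percentage points, and that of Axl by -1.29 to 2.81, with libraries left out, so the sign was not stable.

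Same-numbered libraries did not deviate together (correlations over genes of -0.104, -0.114 and 0.0395). With 3 libraries a group, these correlations cannot exclude a weak pairing. The replicate block gave 5255 calls in place of 5926, the same 3 and 4 for members, and Colec12 at -1.27 (adjusted p = 4.93e-07), Cd36 at 0.44 (adjusted p = 0.0319) and Marco at 0.95. Low counts of Pros1, Olr1, Itgb3, P2ry6 and Cx3cr1 limit what can be said of them.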
